A study of Homo sapiens with 12 samples.

Results

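Zinc-finger transcription factor genes were taken as the genes whose symbol starts with ZNF, ZFP, ZBTB, ZSCAN, ZKSCAN or PRDM followed by a digit. Of the 2365 regions in 12 tables of splicing changes, 53 belonged to such a gene, 31 of them intron features and 22 splicing events. They came from 36 genes, of which 31 were ZNF, 1 ZFP, 2 ZBTB and 2 PRDM genes, with 0 ZSCAN and 0 ZKSCAN genes. An intron was listed for 25 of these genes and a splicing event for 14, and 3 had both, among them ZNF33A and ZNF438. The symbol is the whole test of membership: ZNF252P is a pseudogene, and a role in transcription is not known for every member.

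The cells were HCT116, an established human colon cancer line, in 4 groups of 3 libraries: MTAP-null with AGI24512, MTAP-null with DMSO, MTAP-WT with AGI24512 and MTAP-WT with DMSO. The MTAP-null form is an engineered line, and MTAP is the enzyme that salvages methylthioadenosine. AGI24512 is an inhibitor of MAT2A, which makes the methyl donor S-adenosylmethionine, and DMSO is its solvent; the labels give neither dose nor duration. The design sets AGI24512 against DMSO within each genotype. The labels do not state that the libraries of a group are separate cultures, so p-values measure the spread among these libraries, which may be technical.

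Most of these genes encode proteins that grip DNA with a row of C2H2 fingers, each folded around a zinc ion held by a pair of cysteines and a pair of histidines. Many carry a KRAB domain, which recruits TRIM28 and through it SETDB1 and HP1 to write and read methylated histone H3 lysine 9, above all over transposable elements. The ZBTB proteins use a BTB domain and the PRDM proteins a PR domain in its place. A detained intron is one that is spliced late and stays in a polyadenylated transcript held in the nucleus.

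Some splice sites of the introns that carry the counts below are shown in the GRCh38 build, taken from those that GENCODE 29 transcripts read across. At the 5′ end 3 exonic bases are followed by 6 intronic ones, with the first intronic GT in capitals. ZNF507, ZNF226 and ZNF862 rose with AGI24512 in MTAP-null cells, and ZNF286A fell in MTAP-WT cells.
ZNF507, chr19:32356731-32356739, plus strand: aagGTatct
ZNF226, chr19:44172212-44172220, plus strand: tggGTgagg
ZNF862, chr7:149844734-149844742, plus strand: tggGTatgg
ZNF286A, chr17:15701238-15701246, plus strand: cagGTgagt
The most frequent base at each of the 9 positions over 46892 annotated GT sites read the same way was CAGGTAAGT on the sense strand. ZNF507 matched it at 6 positions, ZNF226 and ZNF862 at 5 and ZNF286A at 8. The sites of ZNF692 and ZNF76 E013, which also rose, each matched at 6. The 7 member sites that could be read had a median of 6 matches, the same as all sites (median 6, quartiles 5 and 7).

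At the 3′ end 20 intronic bases are followed by 3 exonic ones, with the closing intronic AG in capitals. These introns of ZFP90, ZNF621 and ZNF618 rose in MTAP-null cells.
ZFP90, chr16:68562969-68562991, plus strand: tttcttcattcctactctAGcag
ZNF621, chr3:40529299-40529321, plus strand: gcaggaacctgttgtttcAGgag
ZNF618, chr9:114028713-114028735, plus strand: tgagagcgtgaccctctcAGgta
Of the 17 bases ahead of the site, 15 were pyrimidines in ZFP90 and 9 in each of ZNF621 and ZNF618. The other readable sites, also of introns that rose, had 13 in ZNF692 and ZNF76 E013 and 14 in ZNF76 E018. The 6 readable member sites had a median of 13, against a median of 12 (quartiles 11 and 14) over 45735 annotated AG sites. The shortest zinc-finger intron listed in MTAP-null is 271 bases of ZNF692, 63.8% G and C, given whole with its GT and AG in capitals.
ZNF692, chr1:248857860-248858130, minus strand: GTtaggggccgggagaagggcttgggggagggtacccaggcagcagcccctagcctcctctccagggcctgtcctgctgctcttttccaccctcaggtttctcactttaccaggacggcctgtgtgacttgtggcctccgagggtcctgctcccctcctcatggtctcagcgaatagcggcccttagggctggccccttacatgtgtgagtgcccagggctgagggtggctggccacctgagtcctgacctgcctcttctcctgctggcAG

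The 31 intron features are 29 distinct regions, since those of ZNF280D and ZNF641 were listed in both genotypes. Exactly 14 of the 29 are annotated introns, and the others are called introns here only as listed features. An intron number in a GENCODE transcript could be given to 26: 19 lie between coding exons, 6 before the start codon and 1, in ZNF76, after the stop codon of the transcript that holds it. First introns account for 5 and last introns for 3. The feature of ZBTB38, counted here by its place in the first intron of 1 transcript, coincides with a 245-base exon of another. Chromosome 19, where 264 (42.5%) of the 621 coding genes that meet the rule lie, held 4 (16%) of the 25 genes with a listed intron; the 621 genes include genes that these cells may not express.

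In MTAP-null cells the zinc-finger introns were used more within their genes when AGI24512 was present, and most had more reads. The authors' deposited table listed 25 of its 1549 introns in 21 zinc-finger genes, and all 25 had higher usage (93.5% of all listed) and 0 lower usage (6.46% of all). Of the 25, edgeR called 22 as risen (77.6% of all listed) and 0 as fallen (4.65% of all), at an adjusted p below 0.05; 22 had an unadjusted p below 0.05, and DESeq2 called 20. In read count, the median log2 change over the 25 was 1.21, and that over the 1549 was 0.95. The tables hold features that passed the authors' own test on these libraries, so these counts describe the lists and say nothing of zinc-finger genes that are not in them. The edgeR and DESeq2 p-values, here and below, were likewise adjusted only among features already selected on these libraries. They are not error rates over all the introns that the authors tested.

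The scale of the count matters for most of the 22 calls, not only for weak ones. With TMM scaling on the listed introns, the median over all 1549 moved by -0.85, and 7 zinc-finger introns then rose (16.2% of all listed) and 1 fell (16.3% of all). The 7 were those of ZNF507, ZNF226, ZNF692, ZNF761 and ZNF33A and both of ZNF282. The other 15 calls ended. They include ZNF76 E018 (TMM change 0.82, edgeR adjusted p = 0.221) and ZNF12 (0.53, adjusted p = 0.296). ZNF862 (0.51, adjusted p = 0.157) and ZFP90 E011 (0.33, adjusted p = 0.333) are also among them. The members' median stood above that of all listed introns by 0.25 with the authors' size factors and by 0.26 with TMM. TMM takes most of the features it is given to be unchanged, yet these were listed because they changed. It thus centres the list: the median log2 change over all 1549 went from 0.95 to 0.11. Lost calls, turned signs and falls under TMM, here and below, are relative to that centre. A rise of the read count is therefore a rise relative to the authors' scaling, and usage, which compares a feature with its own gene, stands beside it for the members whose count and usage differ. In bulk RNA, fewer cells that express a gene and less of its RNA per cell cannot be told apart.

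**Figure D1:**
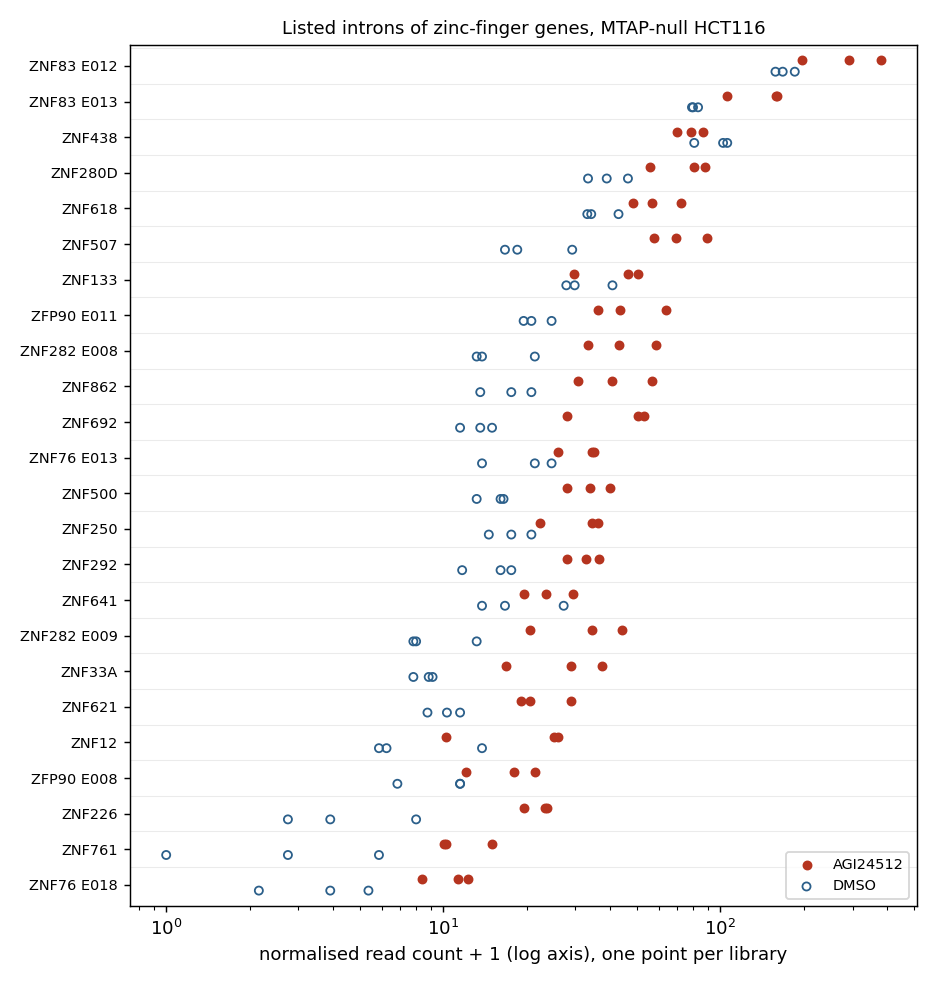
Normalised read count plus 1 (log axis) of 24 of the 25 zinc-finger introns in MTAP-null HCT116, 1 point per library, with AGI24512 as filled and DMSO as open points. In 20 of those drawn the 3 AGI24512 libraries lie above the 3 DMSO libraries; E numbers tell apart introns of the same gene.

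All 3 AGI24512 libraries lay above all 3 DMSO libraries in 21 of the 25 introns (75.9% of all listed) and below them in 0 (5.16% of all). The libraries of the AGI24512 group did not stand level: replicate 1 was the lowest of the 3 in 18 of the 25 members and in 66.9% of all listed introns. Without it, 23 zinc-finger introns rose (82.7% of all listed). Leaving out AGI24512 replicate 2 gave 17 (68.3% of all), and leaving out DMSO replicate 2 also gave 17 (70.9% of all).

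Among genes for KRAB proteins, ZFP90 had 2 listed introns. The intron upstream of the last exon of its transcript (E011, chr16:68558569-68562988) had normalised counts of 42.6, 35.2 and 62.4 with AGI24512, against 23.6, 18.5 and 19.8 with DMSO. It rose by a log2 change of 1.18 (SE 0.28, edgeR adjusted p = 0.00192). The second, 15247 bases long (E008), had 11.1, 17 and 20.5 with AGI24512 and 10.5, 5.83 and 10.5 with DMSO. Its groups are separated by 0.636 counts, and its call (log2 change 0.85, SE 0.37, edgeR adjusted p = 0.0459) was lost without any 1 of 5 libraries: the change was 0.82 without AGI24512 replicate 2, 0.63 without AGI24512 replicate 3, and 1.01, 0.62 and 0.96 without DMSO replicates 1, 2 and 3. DESeq2 gave it an adjusted p of 0.117.

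ZNF282, a repressor first described for its binding to the HTLV-1 promoter region, had 2 features inside the same annotated intron. Feature E008 had counts of 32.4, 42.0 and 57.8 with AGI24512, against 12.2, 20.4 and 12.8 with DMSO. Feature E009 had 19.5, 43.1 and 33.5 with AGI24512, against 12.2, 6.8 and 6.98 with DMSO. Both rose, by 1.53 (SE 0.31, edgeR adjusted p = 0.000767) and 1.82 (SE 0.37, adjusted p = 0.000833), with no overlap of the groups, and both rose under TMM as well, by 0.68 and 0.97. As parts of 1 intron they are not separate observations.

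ZNF862, whose protein joins a KRAB domain to a transposase-like part, had counts of 29.7, 39.7 and 55.9 with AGI24512, against 16.6, 12.6 and 19.8 with DMSO. Its intron 2 rose by 1.36 (SE 0.31, edgeR adjusted p = 0.00144). ZNF500, which carries a SCAN as well as a KRAB domain, had 26.9, 32.9 and 39.1 with AGI24512 and 12.2, 15.5 and 15.1 with DMSO, a rise of 1.21 (SE 0.29, adjusted p = 0.00202). The groups of both genes are apart, by 9.87 counts in ZNF862 and 11.3 in ZNF500.

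ZNF33A, also of the KRAB class, had counts of 15.8, 36.3 and 28.0 with AGI24512, against 7.86, 6.8 and 8.15 with DMSO. Its intron 2, ahead of the start codon, rose by 1.78 (SE 0.38, edgeR adjusted p = 0.00101), and its groups are apart by 7.61 counts. ZNF250 had 21.3, 35.2 and 33.5 with AGI24512 and 16.6, 13.6 and 19.8 with DMSO. It rose by 0.85 (SE 0.30, adjusted p = 0.0181), but leaving out AGI24512 replicate 2 (0.72), AGI24512 replicate 3 (0.75) or DMSO replicate 2 (0.72) ended the call, and its TMM change was -0.004.

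Both KRAB genes whose counts were not called had higher usage. ZNF133 had counts of 28.7, 45.4 and 49.4 with AGI24512, against 28.8, 39.8 and 26.8 with DMSO, a log2 change of 0.36 (SE 0.27, edgeR adjusted p = 0.221) with usage higher by 0.49 (log2) in the authors' deposited table. AGI24512 replicate 1 lies among the DMSO libraries, and without it ZNF133 was called (0.57, edgeR adjusted p = 0.0261). ZNF641 had 18.5, 28.3 and 22.4 with AGI24512, against 15.7, 26.2 and 12.8 with DMSO (0.31, SE 0.32, adjusted p = 0.368); its groups overlap through DMSO replicate 2, and its usage was higher by 0.59 (log2) in the authors' deposited table.

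The other KRAB members had mean counts under 20 and are given by their ranges. ZNF226 had 18.6 to 22.7 with AGI24512, against 1.75 to 6.98 with DMSO, and its rise of 2.49 (SE 0.43, edgeR adjusted p = 0.000282) was the largest of the 25. ZNF621 had 18.1 to 28.0 with AGI24512 and 7.77 to 10.5 with DMSO (1.24, SE 0.33, adjusted p = 0.00397). The groups of these 2 genes are apart. ZNF12 rose by 1.38 (SE 0.46, adjusted p = 0.0128) although its groups overlap, with 9.27 to 24.9 for AGI24512 and 4.86 to 12.8 for DMSO. The call ended when AGI24512 replicate 2 (1.18), DMSO replicate 1 (1.16) or DMSO replicate 2 (1.15) was left out, and its region also holds the antisense gene AC073343.2.

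ZNF761 had 9.07 to 14.0 counts with AGI24512, against 0 to 4.86 with DMSO, and rose by 2.18 (SE 0.59, edgeR adjusted p = 0.00404); without DMSO replicate 2 the change was 3.29. Its feature also carries the symbol TPM3P9 and the detained-intron name of ZNF525, a neighbouring paralogue, so the gene behind these reads is uncertain. How reads that match several paralogues, or overlapping genes on either strand, were counted is not given in the sources used here.

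ZNF83 held the largest counts, in 2 adjoining features that carry the same detained-intron name. Both also carry the symbol LOC101928641, and neither could be given an intron number. Feature E013 also carries names of annotated transcripts and overlaps an annotated exon of ZNF83, so its counts need not come from a retained intron. Feature E012 had 196.5, 291.4 and 378.3 with AGI24512, against 166.9, 184.6 and 157.1 with DMSO. Feature E013 had 104.7, 158.7 and 158.4 with AGI24512, against 82.1, 78.7 and 78.0 with DMSO. In each the groups are apart, with AGI24512 replicate 1 nearest to the DMSO libraries. They rose by 0.77 (SE 0.20, edgeR adjusted p = 0.003) and 0.82 (SE 0.20, adjusted p = 0.00206), below the median of all listed introns, and their TMM changes were -0.10 and -0.042. Their usage log2 changes, 0.20 and 0.23 in the authors' deposited table, were the smallest of the 25, and the sense-intronic gene AC022150.4 overlaps both.

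Among genes for finger proteins without a KRAB domain, all but ZNF438 rose with the authors' size factors. ZNF507 had counts of 56.5, 68.0 and 88.5 with AGI24512, against 15.7, 28.2 and 17.5 with DMSO. Its intron 4 of 6 (chr19:32356734-32360503) rose by 1.79 (SE 0.28, edgeR adjusted p = 0.000153), the lowest adjusted p of the 25, and by 0.94 under TMM. The lowest AGI24512 library had more than the highest DMSO library by 28.4 counts.

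ZNF692, a repressor that binds an element of the PCK1 promoter, had counts of 26.9, 52.2 and 49.4 with AGI24512, against 10.5, 12.6 and 14.0 with DMSO. The 271-base intron printed above rose by 1.79 (SE 0.32, edgeR adjusted p = 0.000373). AGI24512 replicate 1 is the low library here too, yet it lies above every DMSO library. Exons of annotated ZNF692 transcripts, not all of the retained-intron class, overlap this intron, so its counts need not come from a retained intron.

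ZNF76, a relative of the small nuclear RNA gene activator ZNF143, had 2 listed features. Feature E013 (chr6:35291738-35292539) had 25, 34.0 and 33.5 with AGI24512, against 23.6, 20.4 and 12.8 with DMSO. Feature E018 had 7.41, 11.3 and 10.3 with AGI24512, against 4.37, 2.91 and 1.16 with DMSO. The groups of E013 are 1.43 counts apart, and those of E018 are apart at low counts. An exon of an annotated ZNF76 transcript overlaps E018, which is not itself an annotated intron. Its counts therefore need not come from a retained intron. E013 rose by 0.67 (SE 0.29, edgeR adjusted p = 0.0442) and E018 by 1.66 (SE 0.49, adjusted p = 0.00685). Leaving out AGI24512 replicate 2 (0.60) or 3 (0.60), or DMSO replicate 2 (0.72) or 3 (0.48), ended the call of E013, DESeq2 gave it an adjusted p of 0.0917, and its TMM change was -0.18.

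ZNF618, a partner of the 5-hydroxymethylcytosine reader UHRF2, had counts of 55.6, 71.4 and 47.5 with AGI24512, against 33.2, 32.1 and 41.9 with DMSO. It rose by 0.70 (SE 0.24, edgeR adjusted p = 0.0144) with no overlap of the groups. The call did not survive leaving out AGI24512 replicate 2 (0.54) or DMSO replicate 1 (0.65) or 2 (0.63), and the TMM change was -0.13. An exon of another annotated ZNF618 transcript overlaps the feature, so its counts need not come from a retained intron.

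ZNF292, a large finger protein mutated in several cancers, had counts of 26.9, 31.7 and 35.4 with AGI24512, against 16.6, 10.7 and 15.1 with DMSO. Its feature, part of intron 4, rose by 1.14 (SE 0.29, edgeR adjusted p = 0.00301), and its groups are apart by 10.3 counts. An exon of another annotated ZNF292 transcript overlaps this feature, so its counts need not come from a retained intron.

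ZNF438 was the exception in its read count. Its feature, 18159 bases inside an intron ahead of the start codon, had counts of 85.3, 77.1 and 69.0 with AGI24512, against 79.5, 104.9 and 101.3 with DMSO. The log2 change was -0.30 (SE 0.19, edgeR adjusted p = 0.157), while under TMM it fell by 1.13 (adjusted p = 3.44e-07). DMSO replicate 1 lies among the AGI24512 libraries and the other DMSO libraries above them. Its usage was still higher with AGI24512, by 0.27 on the log2 scale in the authors' deposited table: the count of this feature and its share of the gene's reads pointed in opposite directions.

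**Figure D2:**
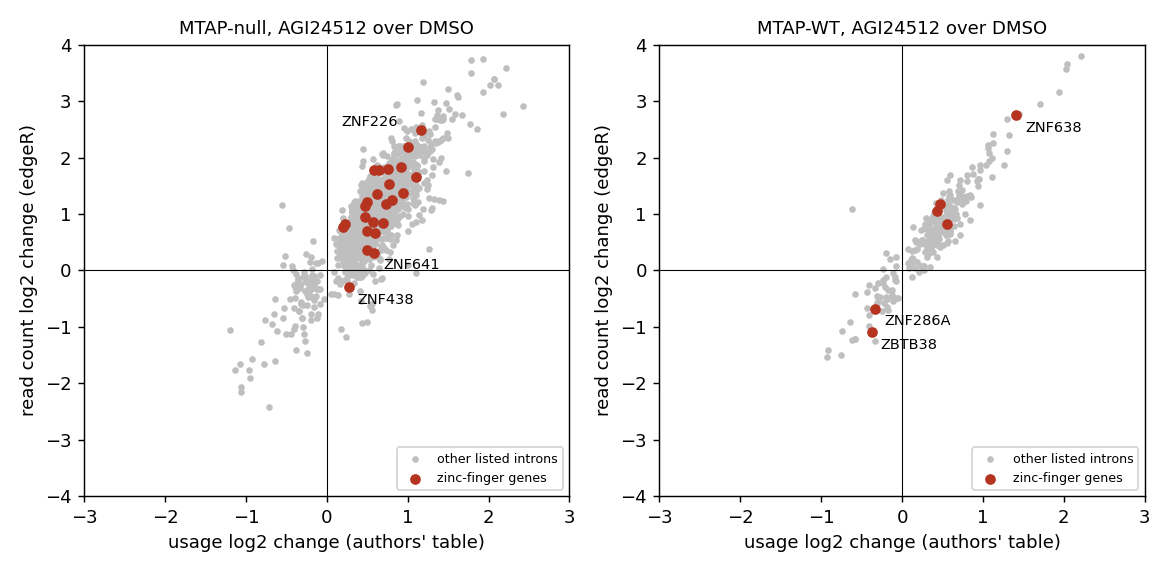
Log2 change of the read count (edgeR, vertical) against the log2 change of usage (authors' table, horizontal), AGI24512 over DMSO, for 24 of the 25 MTAP-null and all 6 MTAP-WT zinc-finger introns (red) and the other listed introns (grey); 10 MTAP-null and 5 MTAP-WT introns lie beyond the axes and are not drawn. The MTAP-null zinc-finger introns drawn are right of 0 and ZNF438 alone is below 0, while ZBTB38 and ZNF286A lie in the lower left of the MTAP-WT panel.

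**Figure D3:**
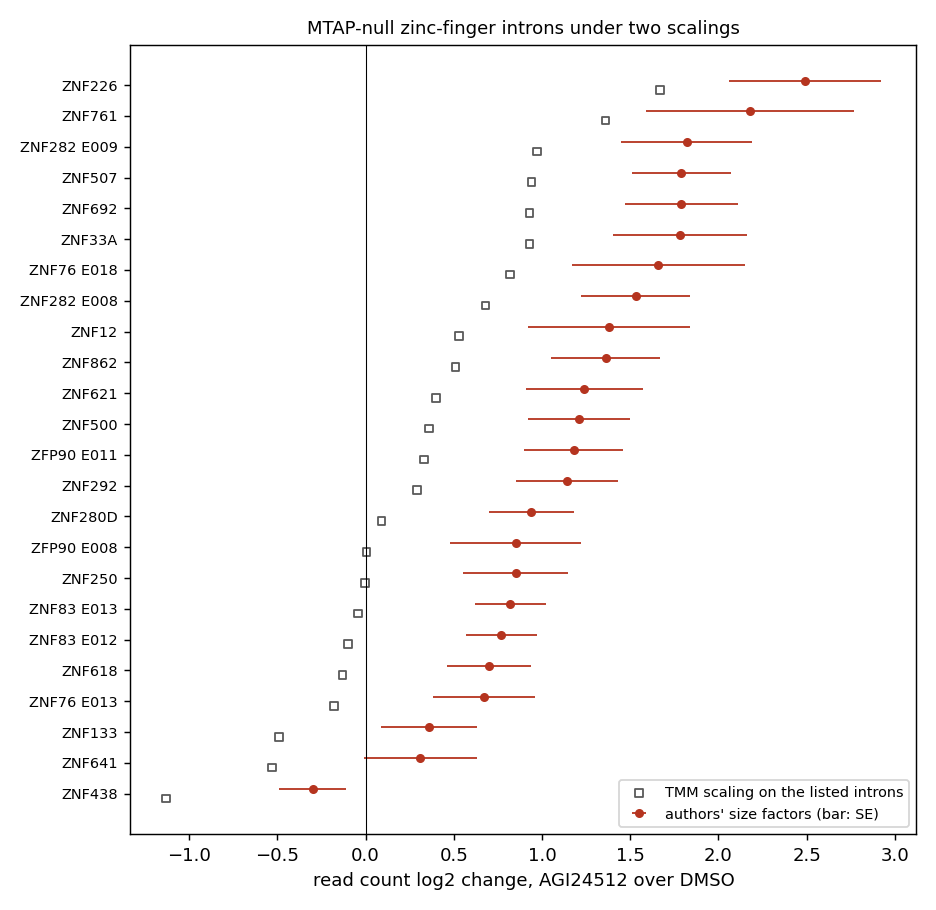
Log2 change of the read count of 24 of the 25 MTAP-null zinc-finger introns, AGI24512 over DMSO, with the authors' size factors (filled points, bars are 1 SE) and with TMM scaling on the listed introns (open squares). TMM moves every point to the left, and ZNF641, ZNF133, both ZNF83 features, ZNF618, ZNF250 and ZNF76 E013 change sign.

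In MTAP-WT cells the zinc-finger introns went both ways. The authors' deposited table listed 6 zinc-finger introns of 258, in 6 genes, with higher usage in 4 (79.1% of all listed) and lower usage in 2 (20.9% of all). The 3 AGI24512 libraries lay above the DMSO libraries in those 4 (69.4% of all listed) and below them in those 2 (14.3% of all). By read count edgeR called the same 4 as risen (70.5% of all listed) and the same 2 as fallen (14.3% of all), and DESeq2 called all 6. The median log2 change was 0.94 over the 6 and 0.73 over the 258. Under TMM the median over all 258 moved by -0.57; 3 of the 6 then rose (23.3% of all), 2 fell (26.4% of all) and ZNF641 was no longer called.

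**Figure D4:**
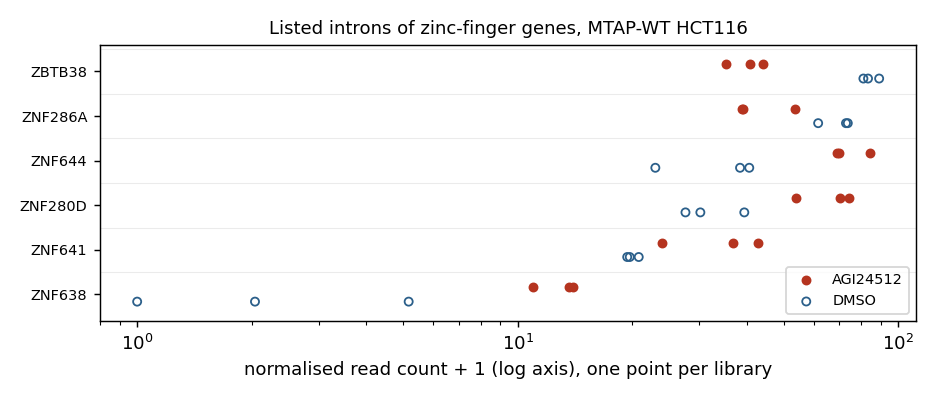
Normalised read count plus 1 (log axis) of the 6 zinc-finger introns in MTAP-WT HCT116, 1 point per library, with AGI24512 as filled and DMSO as open points. The AGI24512 libraries lie below the DMSO libraries in ZBTB38 and ZNF286A and above them in the other 4.

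The 2 that fell were in ZBTB38 and ZNF286A. ZBTB38, a BTB protein that binds methylated CpG, had counts of 34.3, 39.9 and 43.0 with AGI24512, against 88.1, 80 and 82.3 with DMSO. It fell by 1.10 on the log2 scale (SE 0.20, edgeR adjusted p = 4.87e-07), and its groups are far apart relative to their spread. As this region (chr3:141396259-141396503) coincides with an annotated exon ahead of the start codon, its counts need not come from a retained intron. ZNF286A, a KRAB gene, had 38.0, 37.9 and 52.5 with AGI24512, against 60.6, 72.7 and 71.9 with DMSO, and fell by 0.68 (SE 0.20, adjusted p = 0.00131) with no overlap. Its intron 3 of 5 overlaps the gene AC005324.4 on the same strand and the pseudogene UBE2SP1 on the other. Exons of other annotated ZNF286A transcripts overlap this intron too, so its counts need not come from a retained intron.

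ZNF644, which works with the histone H3 lysine 9 methyltransferase G9a, had counts of 83.5, 68.8 and 68.2 with AGI24512, against 22.0, 37.4 and 39.6 with DMSO. Its listed feature, 38057 bases inside the first intron, rose by 1.17 (SE 0.21, edgeR adjusted p = 4.44e-07), with the groups apart. The feature also carries the symbol LOC102723410. ZNF638, a nuclear RNA- and DNA-binding protein that recruits the HUSH complex to unintegrated retroviral DNA, had 9.97 to 13 counts with AGI24512, against 0 to 4.17 with DMSO. Its intron 24 of 27 rose by 2.75 (SE 0.60, adjusted p = 2.68e-05), and by 4.30 without DMSO replicate 3, the highest DMSO library.

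The introns of ZNF280D and ZNF641 were listed in both genotypes. In MTAP-null cells ZNF280D had counts of 54.7, 79.4 and 86.7 with AGI24512, against 32.3, 37.9 and 45.4 with DMSO. In MTAP-WT cells it had 73.3, 52.8 and 69.2 with AGI24512, against 26.6, 38.4 and 29.2 with DMSO. The groups are apart in each genotype, and the intron rose by 0.94 (SE 0.24, edgeR adjusted p = 0.00297) in MTAP-null and by 1.06 (SE 0.21, adjusted p = 6.50e-06) in MTAP-WT cells. Under TMM the MTAP-null change was 0.09 and no longer called (edgeR adjusted p = 0.79). The MTAP-WT change was then 0.48 and still called (adjusted p = 0.0464). The drug-by-genotype term, the MTAP-null change minus the MTAP-WT change, was -0.12 (SE 0.32, 95% interval -0.75 to 0.52, edgeR adjusted p = 0.891), so differences of up to those sizes are not excluded. Part of this region also holds exons of annotated ZNF280D transcripts, and AC090517.2 and AC090517.4 on the same strand. Its counts therefore need not come from a retained intron.

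ZNF641 in MTAP-WT cells had 41.7, 22.9 and 35.7 with AGI24512, against 18.4, 18.7 and 19.8 with DMSO. It rose there by 0.82 (SE 0.27, edgeR adjusted p = 0.0035), but not without AGI24512 replicate 1 (0.62, edgeR adjusted p = 0.059) nor under TMM (0.25, adjusted p = 0.435), and it was not called in MTAP-null cells. That contrast between genotypes did not pass its own test: the drug-by-genotype term was -0.51 (SE 0.42, 95% interval -1.34 to 0.31, edgeR adjusted p = 0.447). Of the 92 introns listed in both genotypes, the term was called higher in MTAP-null for 9.78% and lower for 8.7%.

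The splicing events of zinc-finger genes rest on few reads. The rMATS tables compare sample set 1 with sample set 2 and do not say which treatment is which, so no direction by drug is given. They listed 17 events of 459 in 11 zinc-finger genes for MTAP-null cells, with inclusion higher in set 1 for 10 (55.8% of all listed), and 5 of 99 in 4 genes for MTAP-WT cells, higher in set 1 for 3 (49.5% of all). The sets did not overlap in 16 of the 17 (90.2% of all listed) and 4 of the 5 (91.9% of all); ZNF26 and ZNF680 were the exceptions. The reads behind an event, summed over 6 libraries, had a median of 64 in MTAP-null (17 to 1559) and 27 in MTAP-WT (18 to 66), and only ZNF384, ZBTB8B and ZNF252P had 20 or more in every library.

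The event with the most reads was a 48-base exon of ZNF384, a factor that binds A/T-rich DNA and is a fusion partner in acute lymphoblastic leukaemia. It lies inside the coding sequence of annotated transcripts and keeps the frame, and is shown in lower case with no base singled out.
ZNF384 exon, chr12:6678663-6678710, minus strand: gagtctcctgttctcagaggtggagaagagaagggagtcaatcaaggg
Its inclusion level was 0.643, 0.557 and 0.638 in set 1, against 0.811, 0.798 and 0.846 in set 2 of MTAP-null. The 95% exact binomial (Clopper-Pearson) intervals of the single libraries, which cover counting error only, ran from 0.482 to 0.711 over set 1 and from 0.741 to 0.895 over set 2 and did not overlap. The difference of -0.206 had an FDR of 0.000567 in the authors' deposited table.

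A 1032-base exon of ZBTB8B, partly coding, was included at 1.0, 0.7 and 1.0 in set 1, against 0.447, 0.556 and 0.49 in set 2 (difference 0.402, FDR 0.009 in the authors' deposited table). The sets are apart, but skipping rests on 1 read in set 1 and on 3, 2 and 2 reads in the libraries of set 2. In the pseudogene ZNF252P a 101-base exon was included at 0.954, 1.0 and 1.0 in set 1 and 0.833, 0.597 and 0.898 in set 2 (0.209, FDR 0.019 in the authors' deposited table).

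ZNF266, a KRAB gene on chromosome 19, had 6 of the 17 MTAP-null events and 1 of the 5 in MTAP-WT. Its skipped exons of 62 and 161 bases do not overlap but have the same skipping reads. The other events of the gene overlap one another at a separate site. A 134-base intron of ZNF266 (chr19:9418632-9418765) was the one zinc-finger event listed in both genotypes. Of its skipped exons in MTAP-null, those of 62 and 161 bases had levels higher in set 1 (differences 0.425 and 0.362), and those of 130 and 134 bases, which share an end, had levels lower in set 1 (-0.519 and -0.573), all in the authors' deposited table. The 134-base intron was retained at 1.0, 1.0 and 0.826 in set 1, against 0.623, 0.602 and 0.694 in set 2 of MTAP-null (difference 0.302, FDR 0.0247 in the authors' deposited table). In MTAP-WT it was retained at 1.0 in all 3 libraries of set 1, against 0.261, 0.216 and 0.476 in set 2 (0.682, FDR 1.56e-09 in the authors' deposited table). Whether set 1 is the same treatment in both genotypes is not given, so these differences are not compared.

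The 3 retained introns of the MTAP-null list, this one, a 155-base intron of ZNF266 and a 782-base intron of ZNF26, all had higher levels in set 1, as did 86.3% of all 51 retained introns listed. The ZNF26 event had 22 reads, and its set 2 levels of 0.177, 1.0 and 0 span the whole scale. The MTAP-null mutually exclusive and skipped exon events of ZNF107 share an exon of 127 bases, and so do, at 112 bases, those of PRDM8 in MTAP-WT. Each such pair is therefore 1 observation.

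ZNF33A and ZNF438 had an event as well as a listed intron. In ZNF33A an alternative 3′ splice site that adds 48 bases was used at 0.537, 0.498 and 0.57 in set 1, against 0, 0 and 0.398 in set 2 (difference 0.402, FDR 0.018 in the authors' deposited table). In ZNF438 an 81-base exon was included at 0.043, 0 and 0 in set 1, against 0.244, 0.177 and 0.315 in set 2 (-0.231, FDR 0.0382 in the authors' deposited table). With 0 of 9 reads in the deeper of its libraries at 0, a share of up to 33.3% of reads is allowed. The remaining events were skipped exons of ZNF239 and ZNF782 in MTAP-null and of ZNF177 and ZNF680 in MTAP-WT, each with 27 to 62 reads in all.

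**Figure D5:**
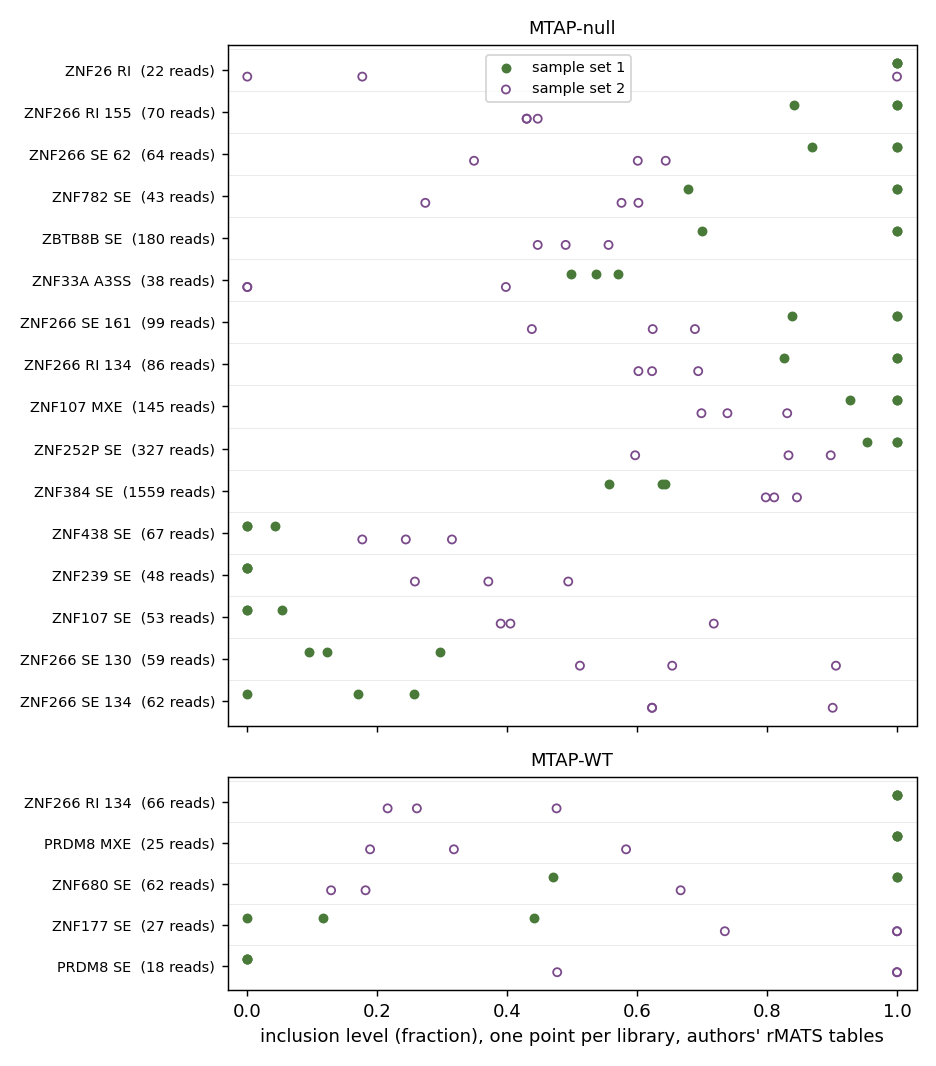
Inclusion level (fraction of transcripts with the exon, intron or longer exon) of 21 of the 22 zinc-finger events, 1 point per library, in sample set 1 (filled) and sample set 2 (open), with the summed reads beside each name; numbers after ZNF266 are lengths in bases. ZNF384, with 1559 reads, has its sets apart at 0.557 to 0.643 and 0.798 to 0.846, while most others rest on under 100 reads.

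Listed introns also lay in genes for the proteins that KRAB and BTB factors act through. Of 25 genes of the KRAB corepressor list, 5 had a listed intron in MTAP-null cells, MBD3, CBX5, CHD3, RBBP7 and SETDB1, and all 5 introns rose, where 77.6% of all listed introns did (median 1.04, against 0.95 over all). TRIM28, also on this list, had no listed intron in either genotype. Under TMM 1 of the 5 rose (16.2% of all listed). MBD3, a subunit of the NuRD complex, had 163.1, 172.3 and 186.4 counts with AGI24512, against 121.5, 122.4 and 118.7 with DMSO (0.52, SE 0.15, edgeR adjusted p = 0.00659; TMM change -0.32). CBX5, which encodes HP1 alpha, had 47.3, 65.8 and 55.0 with AGI24512, against 24.5, 28.2 and 29.1 with DMSO (1.04, SE 0.24, adjusted p = 0.0016; TMM change 0.19, adjusted p = 0.556). The groups of both are apart, but under TMM neither was called and the MBD3 change turned round.

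Of 21 genes for partners of BTB factors, 3 had a listed intron in MTAP-null cells, CTBP1, CTBP2 and SIN3B, and all 3 rose, where 77.6% of all listed introns did. Their median of 0.51 lies below the 0.95 over all, and under TMM 1 rose (16.2% of all listed) and 1 fell (16.3% of all). SIN3B, a scaffold for histone deacetylases, had 315.1, 284.6 and 304.7 counts with AGI24512, against 78.6, 80.6 and 82.6 with DMSO (1.90, SE 0.15, edgeR adjusted p = 2.88e-07). It rose under TMM as well, by 1.07. CTBP1, a corepressor, had 208.5, 242.6 and 219.9 with AGI24512 and 161.6, 177.8 and 181.6 with DMSO; it rose by 0.37 (adjusted p = 0.029) and fell under TMM by 0.47 (adjusted p = 0.0148). A list of 17 gene symbols for the HUSH complex and for other H3 lysine 9 enzymes, which leaves out SETDB1 and CBX5 as members of the corepressor list, had 0 listed in either genotype, and the corepressor and BTB lists had 0 in MTAP-WT. The share of all expressed genes that have a listed intron is not known here. The number of genes listed from each list, here and below, is therefore a description only.

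Of 99 other genes for zinc-finger proteins, not all of them transcription factors, 5 had 7 listed introns in MTAP-null cells, of which 6 rose and RREB1 was not called, where 77.6% of all listed introns rose (median 0.96, against 0.95 over all). Under TMM 2 of the 7 rose (16.2% of all listed) and 1 fell (16.3% of all). ZXDC had the most reads, with 933.3 to 1389.4 for AGI24512 and 844.1 to 939.4 for DMSO; it rose by 0.42 (edgeR adjusted p = 0.00536) but fell under TMM by 0.44. ZFAND5 had 139.0 to 245.1 with AGI24512 and 81.5 to 107.8 with DMSO and rose by 0.96 (adjusted p = 0.00116; TMM change 0.10, adjusted p = 0.708), in a feature shared with LOC102724516. In MTAP-WT cells 3 of the 99 were listed and rose, where 70.5% of all listed introns did, KLF6 by 0.45 (adjusted p = 0.0128; TMM change -0.13), GLIS3 by 1.20 (adjusted p = 2.26e-07; TMM change 0.63) and ZMYM4 by 1.06 (adjusted p = 0.0011; TMM change 0.48, adjusted p = 0.164). Their median was 1.06, against 0.73 over all, and under TMM only GLIS3 was called.

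Over the listed introns as a whole, the MTAP-null libraries summed to between 113064 and 214530 reads and the MTAP-WT libraries to between 50919 and 65080; sequencing depth itself is unknown here. In MTAP-null the median mean count was 23.6 over the zinc-finger introns and 44.1 over all listed introns, and the median width 3454 and 2097 bases. In MTAP-WT the medians were 50.7 and 58.8 counts, and 3410 and 2120 bases. Only 1 of 9 colon epithelium markers, KRT8, had a listed feature, whose count fell by 0.77 in MTAP-null and rose by 0.83 in MTAP-WT cells (edgeR adjusted p = 0.00201 and 2.87e-07), so the identity of the cells cannot be checked from these tables.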

How the data were processed

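Poly-A RNA of 12 libraries was sequenced as paired ends, per the labels' protocols. Of 12 deposited tables, 6 per genotype, 1 holds DEXSeq features and 5 hold rMATS events, per the file headers. The authors deposited raw counts of reads in each feature, a signal column of base means (counts divided by size factors), a score of fitted usage per group, a log2 fold of usage coded DMSO over AGI24512 (its sign was turned here), and p-values; rMATS read counts and inclusion levels (a fraction) are the authors' too. The deposited score of an event is its inclusion difference, set 1 minus set 2. Merged count cells were split by their inclusion levels (tolerance 0.0011). No source used here gives the aligner, tool versions, build or strand setting; the regions were matched to GENCODE 29 (GRCh38), whose transcripts gave the sequences.

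Size factors (0.859 to 1.14 in MTAP-null, 0.953 to 1.09 in MTAP-WT) were recovered from the base means. Counts were fitted per genotype over all listed features with edgeR 4.0.16 (quasi-likelihood, R 4.3.3), and p-values adjusted by Benjamini-Hochberg over that table; the SE is the log2 change over the square root of F. Rose and fell mean an adjusted p below 0.05. The 92 introns listed in both genotypes entered 1 fit of the 12 libraries that has a drug-by-genotype term. Alternatives were DESeq2 1.42.0, TMM, a mean count of at least 10, stricter author thresholds, features of 1 gene, a replicate block and leaving out each library. The edgeR step was tested on simulated data, with a minority of features changed, in both directions alike, and with known size factors. That setting differs from these lists, which were selected for change and mostly rose, and it does not bear on the choice of scaling. Members are named, except 1 gene that counts in every total and is not reported here by name; counts per library are given at a mean of at least 20, or for genes with several features, an event or both genotypes, and the 2 list genes of highest count are valued. Members and lists were chosen with earlier results of these data known.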

Additional observations from a re-analysis of the deposited data

How the results depend on the processing

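Most single-intron results kept direction and call: DESeq2 left 30 as they were and ended 2 calls, a mean count of at least 10 left 28 and ended 1, and leaving out 1 library left 188, ended 19, reversed 2 and added 1. TMM scaling, which centres the listed introns, changed most. It gave 504 called introns in MTAP-null and 128 in MTAP-WT, against 1274 and 219, with 7 zinc-finger introns risen and 1 fallen in MTAP-null; 16 of 28 single calls ended, 15 in MTAP-null and 1 in MTAP-WT (ZNF641), and 7 changes, 5 of them among those calls, reversed, to -0.004 (ZNF250), -0.18 (ZNF76 E013), -0.13 (ZNF618), -0.10 and -0.042 (ZNF83 E012 and E013), -0.53 (ZNF641) and -0.49 (ZNF133). Among features with an authors' adjusted p below 0.01, 802 MTAP-null and 110 MTAP-WT introns were called, and of the zinc-finger introns 14 of 14 rose in MTAP-null, and of 3 in MTAP-WT 2 rose and 1 fell; usage was higher in 14 and in 2. By construction fewer features enter there. Features of 1 gene with no annotated transcript left 1 fallen zinc-finger intron in MTAP-WT, since ZBTB38 drops out. At an FDR below 0.01, 10 MTAP-null events remained. The drug-by-genotype term of ZNF280D changed sign, far from any call, without MTAP-null AGI24512 replicate 1 (0.07) and MTAP-null DMSO replicate 3 (0.008), within a range of -0.28 to 0.07 over all libraries left out. Leaving out 1 library gave 1072 to 1352 called MTAP-null introns, 203 to 218 in MTAP-WT, and 17 to 23 risen zinc-finger introns in MTAP-null. The causes were not tested.

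No pairing by replicate number was seen: the correlations of same-numbered deviations were 0.069, 0.038 and 0.008 in MTAP-null and -0.117, -0.016 and 0.062 in MTAP-WT. Those of differently numbered deviations ran from -0.073 to 0.052 in MTAP-null and from -0.146 to 0.134 in MTAP-WT. With 3 libraries per group, such values cannot exclude a pairing. The replicate block gave 1287 called introns in MTAP-null and 215 in MTAP-WT, with 21 risen zinc-finger introns in MTAP-null; the call of ZFP90 E008 was not reached (0.82, edgeR adjusted p = 0.051). Low counts limit ZNF638, ZNF76 E018 and ZNF761, and most events.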
